A study of Mus musculus and Homo sapiens with 14 samples.

Results

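Interferon-stimulated genes are genes that cells switch on after interferons reach their receptors, and they were followed here by symbol. A list of 37 mouse symbols was matched to the rows of 4 tables of normalized expression. All 37 were among the 20682 genes of each mouse table, and 33 were among the 19166 genes of the human table, which had no rows named OAS1A, OASL1, OASL2 or GBP9. The list was divided into 5 guanylate-binding proteins and 32 type I interferon targets. Both subgroups follow what the genes are known for, but they were named with earlier results of these data known.

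Polyadenylated RNA was sequenced from acute myeloid leukemia cells in 14 libraries, which form 7 groups of 2. RN2c is the Cas9-expressing form of the mouse leukemia line RN2. Its cells were infected with lentivirus carrying a guide RNA targeting Rosa26 (a control for DNA cutting), Sik3 (guides e1 and e3) or Mef2c (guides 1 and 2), and were collected on day 2 after infection. RN2 cells and the human line MOLM-13 were given YKL-05-099, an inhibitor of salt-inducible kinases, at 350 nM in RN2 and 250 nM in MOLM-13, or 0.1% DMSO, each for 2 hr. The MOLM-13 cells carried an empty vector, and the titles of the RN2 libraries also hold the word empty. Whether libraries of 1 group are separate cultures is not stated in the labels. Each knockout library carries a single guide, so the spread within a knockout group includes any difference between guides.

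Type I interferons signal through the kinases JAK1 and TYK2 to transcription factors that include STAT2 and IRF9, which bind the interferon-stimulated response element. Interferon gamma acts on gamma-activated sites and through IRF1, and guanylate-binding proteins, large GTPases that attack the membranes of intracellular pathogens, respond to both. Leukemia and other hematopoietic cells can hold a low resting level of these genes without added interferon. SIK3 is a kinase that keeps class II histone deacetylases away from MEF2C, a transcription factor on which these leukemia cells depend.

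Promoters of members are printed to show what the genes share apart from the list. Reference promoters of 250 bases before to 50 bases from the start (RefSeq, GRCm38.p6) were found for 28 members. The 9 without one were Dhx58, Gbp4, Gbp9, Mx1, Mx2, Oas2, Parp14, Parp9 and Usp18. The core of the response element, spelled GAAA, any 2 bases and GAAA again, on either strand, was in 14 of the 28, or 50%, against 3.993% of the 27025 genes with a promoter in the reference. It was in 3 of 3 guanylate-binding proteins and in 11 of 25 type I targets. The gamma-activated site TTCNNNGAA was in 9 of the 28, or 32.14%, against 9.554% of genes. Each motif was searched on its own, so a base may belong to both. The stretches printed below run 5′ to 3′ on the gene's own strand and end before the first annotated exon, with each core in capitals. Gbp7 (chr3:142530186-142530335, plus strand) and Gbp3 (chr3:142559894-142560015, plus strand) are neighbours that moved in opposite directions after sgSik3. Rsad2 (chr12:26456453-26456602, minus strand) and Oas3 (chr5:120777685-120777809, minus strand) fell after sgSik3, and Stat2 (chr10:128270248-128270397, plus strand) rose.
Gbp7: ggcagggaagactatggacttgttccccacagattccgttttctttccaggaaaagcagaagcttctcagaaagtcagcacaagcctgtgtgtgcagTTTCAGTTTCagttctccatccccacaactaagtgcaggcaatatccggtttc
Gbp3: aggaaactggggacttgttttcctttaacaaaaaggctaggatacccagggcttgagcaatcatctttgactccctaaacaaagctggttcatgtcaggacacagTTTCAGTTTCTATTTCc
Rsad2: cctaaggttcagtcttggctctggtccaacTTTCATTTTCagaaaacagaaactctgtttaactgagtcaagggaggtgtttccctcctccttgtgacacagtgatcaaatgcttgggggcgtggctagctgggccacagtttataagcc
Oas3: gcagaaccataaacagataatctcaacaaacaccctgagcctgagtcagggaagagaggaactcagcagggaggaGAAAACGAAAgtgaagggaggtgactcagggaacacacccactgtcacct
Stat2: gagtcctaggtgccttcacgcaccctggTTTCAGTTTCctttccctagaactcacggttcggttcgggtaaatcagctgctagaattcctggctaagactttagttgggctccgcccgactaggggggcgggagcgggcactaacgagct
The cores in Gbp3 overlap each other and make up a single longer run. A core also lay in the windows of Ddx58 and Ifih1, which rose after sgSik3, but after the start and not before it. These matches describe letters in a window and not bound sites.

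Read totals recovered from the tables were 19065348 to 24275290 per library in RN2c, 13961461 to 14943682 in RN2 and 16859820 to 22609627 in MOLM-13. Sik3 was at 1939 and 1878 in the sgRosa26 libraries and at 1219 and 1169 in the sgSik3 libraries. Mef2c was at 8395 and 8369 in sgRosa26 and at 3892 and 4021 in sgMef2c, so each targeted transcript was lower in both of its libraries. All 8 myeloid leukemia markers passed the filter in every table, and most markers of B and erythroid cells were near 0. Other lists were mixed. Pdgfrb of the fibroblast list and Tcf4 and Il3ra of the plasmacytoid dendritic list passed the filter in the mouse tables. Of the T and natural killer list Nkg7 was tested and rose, by 1.43 after sgSik3 and 1.67 after sgMef2c (limma adjusted p 4.92e-05 and 0.000472). The other 7 markers of that list stayed below 10 in RN2c. Neutrophil granule markers rose in 8 of 8 cases in each knockout, with summed values of 21260 to 23350 in sgRosa26 against 108900 to 118700 in sgSik3, and of 22350 to 24480 against 103200 to 205100 in sgMef2c. The part of this shift in the results below was not tested. In bulk RNA, fewer cells of a type and less RNA per cell cannot be told apart. Interferon ligands were nearly unread: the 21 ligand rows of the mouse tables together held at most 1 read per library in RN2c and at most 6 in RN2, and the 22 rows in MOLM-13 held at most 1.

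In sgRosa26 control cells the members covered a wide span of expression. Levels per exon length and read total (RPKM), the scale used to compare genes, averaged 33.3 in sgRosa26 for Bst2, which encodes tetherin, a protein that holds budding virus particles at the cell surface. Trim25, a ubiquitin ligase of the RNA-sensing pathway, followed at 26.4, and Eif2ak2, the kinase PKR that stops translation on double-stranded RNA, at 13.5. Gbp3 was the highest guanylate-binding protein and the sixth of the members, at 11.1 and 10.5 in the sgRosa26 libraries. Adar, the RNA-editing deaminase just above it, was at 10.9 and 10.7, so their order is within the spread of the libraries. Gbp7 was at 3.37 and 2.91 and Gbp2 at 0.51 and 0.48. Gbp9 and Gbp4 were at means of 0.050 and 0.0031. Ifi44 had no read in any RN2c or RN2 library. The RN2 DMSO libraries gave a like order, with Bst2, Trim25 and Eif2ak2 again in the first places and Gbp3 in the fourth. In RN2c, 8 members fell under the filter of a mean value of 10 and were not tested, namely Ifit1, Ifit3, Oasl1, Oasl2, Mx2, Ifi44, Gbp4 and Gbp9. Mx2, annotated as a polymorphic pseudogene, had values of 5.93 and 7.32 in sgRosa26 against 0.90 and 1.08 in sgMef2c. With no filter, its log2 fold change in sgMef2c was -1.94 (limma adjusted p 0.0215).

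After loss of Sik3 some members rose and others fell, as genes across the transcriptome did. The cytoplasmic RNA sensors and Samd9l rose, while Rsad2, Mx1, Xaf1, Usp18 and Oas3 fell, and the guanylate-binding proteins went both ways. Of 29 members tested, 8 rose, 10 fell and 11 did not pass (limma on log2(value + 1), Benjamini-Hochberg adjustment over all genes tested, threshold 0.05). Of all 10934 genes tested, 47.8% were called, 23.9% higher and 23.9% lower, so calls in both directions were common across the transcriptome and not particular to the members. Groups did not overlap for 11 members on the higher side and 12 on the lower, against 37.4% and 37.8% of all genes (75.2% in either direction). The median log2 fold change was 0.08 over the members and 0.00 over all genes. By subgroup, 7 of 26 type I targets rose and 9 fell, with a median of 0.05, and of 3 guanylate-binding proteins tested 1 rose and 1 fell, with a median of 0.17. Single libraries turned the sign of both medians: that of type I targets was -0.06 without sgRosa26 library 2, and that of the guanylate-binding proteins was -0.13 without e3 and 0.38 without e1. DESeq2 on the recovered reads called 3532 of the 10934 genes in either direction, among them 4 members higher and 2 lower. Fewer members were also called when any 1 library was left out, and the share of all genes in those runs was not taken.

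The 3 RNA sensors of the list rose together after sgSik3. Ddx58, which encodes RIG-I, had values of 230.5 and 263 in sgRosa26 and 438 and 453 in sgSik3. Both knockout libraries were far above both controls, and the log2 fold change was 0.85 (SE 0.09, limma adjusted p 8.85e-05). Ifih1, which encodes the long double-stranded RNA sensor MDA5, went from 380.03 and 395 to 551 and 526, a log2 fold change of 0.47 (SE 0.07, limma adjusted p 0.00064), again without overlap. Dhx58, the regulator LGP2 that lacks the signaling domain of the other sensors, rose by 0.33 on the log2 scale. Samd9l, a cytoplasmic restriction factor of poxviruses that also restrains growth of myeloid cells, rose from 124 and 181 to 329 and 257, a log2 fold change of 0.95 (SE 0.18, limma adjusted p 0.0025). Isg20, an RNA exonuclease, rose from 80.9 and 72.8 to 95.4 and 132, a log2 fold change of 0.54 (SE 0.18, limma adjusted p 0.036). Its e1 library lay closer to the controls than its e3 library. Among the transcription factors Stat2 rose by 0.25 and Irf1 by 0.16, while Irf9, the DNA-binding partner of STAT2, fell by 0.29. The rise of Irf1 was just inside the threshold (limma adjusted p 0.049) and did not pass by edgeR or DESeq2. Dhx58, Isg20 and Irf9 did not pass by DESeq2 either. Irf7, which amplifies interferon production, did not pass, at 52.7 and 38.9 against 50.6 and 49.1.

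The steepest falls were in members of low abundance. Rsad2, the radical enzyme viperin that makes a chain-terminating nucleotide, was at 26.3 and 14.0 in sgRosa26 and 5.84 and 4.37 in sgSik3, with a log2 fold change of -1.74 (SE 0.43, limma adjusted p 0.0090). The sgRosa26 libraries differed from each other, but both stood above both knockout libraries. Mx1, a dynamin-like GTPase that blocks influenza virus, was at 30.1 and 29.9 against 11.7 and 12.0, a log2 fold change of -1.27 (SE 0.28, limma adjusted p 0.0054). Xaf1, a protein that promotes apoptosis, was at 30.1 and 37.9 against 16.5 and 17.5, a log2 fold change of -0.95 (SE 0.27, limma adjusted p 0.017). In both genes the libraries of a group lay close together relative to the gap between groups. Usp18, the protease that removes ISG15 and dampens the type I receptor, was at 47.03 and 47.9 against 26.3 and 34.9, a log2 fold change of -0.63 (SE 0.23, limma adjusted p 0.049). Oas3, an enzyme that makes the oligoadenylate messenger for RNase L, was at 71.5 and 80.8 against 45.7 and 52.4, a log2 fold change of -0.62 (SE 0.18, limma adjusted p 0.019). The knockout libraries of both genes lay below both controls, and Usp18 was just inside the threshold. Bst2 fell by 0.46, Parp14 by 0.23 and Trim25 by 0.13, of which Parp14 and Trim25 did not pass by DESeq2. Rsad2, Mx1, Xaf1, Usp18 and Oas3 were not past the threshold by DESeq2, with adjusted p from 0.057 to 0.29. When 1 library was left out, Usp18 lost its limma call in each such run. Rsad2, Xaf1 and Oas3 lost theirs in at least 1 run, and Mx1 in none.

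**Figure D1:**
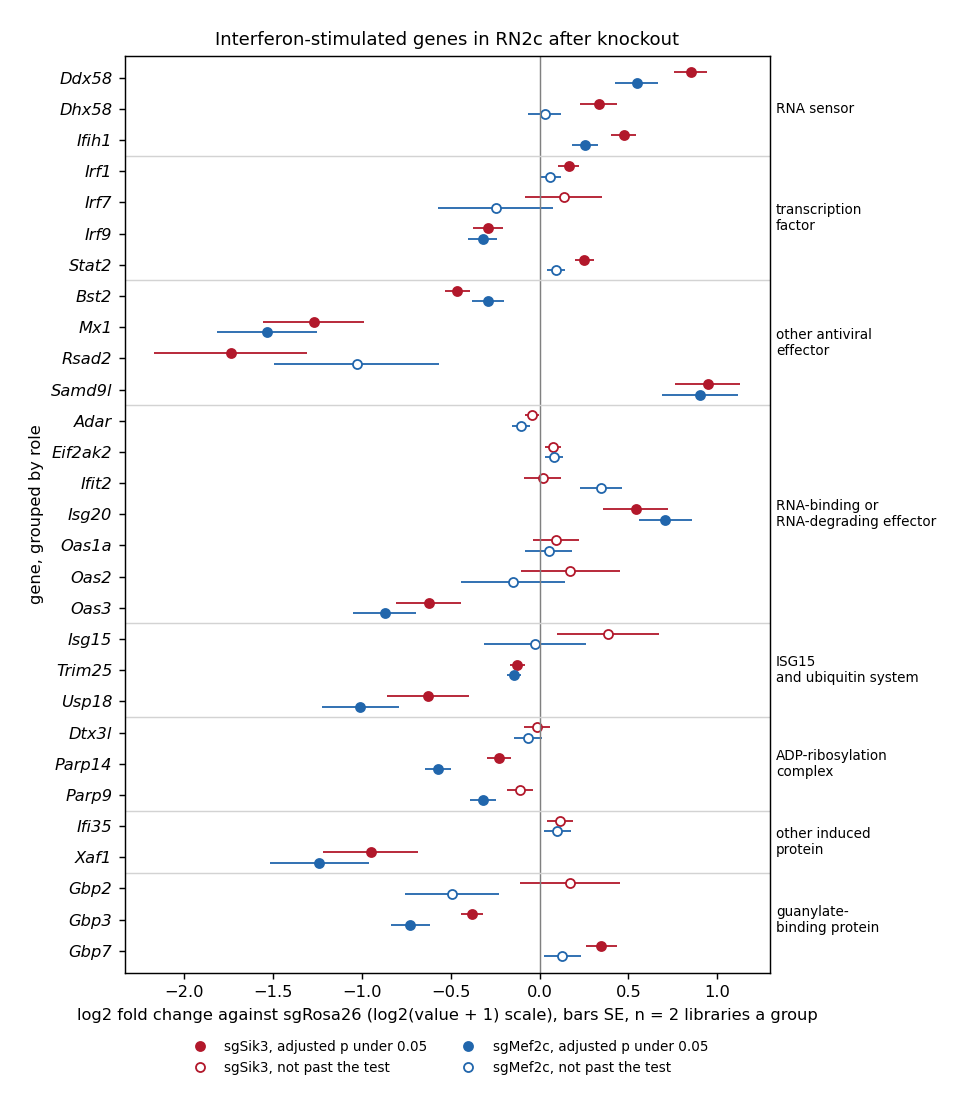
Log2 fold change of the 29 tested members against sgRosa26 (horizontal axis, log2(value + 1) scale) for sgSik3 in red and sgMef2c in blue, with genes in rows grouped by role. Points are estimates from 2 libraries a group, bars are SE, and filled points passed the limma test at an adjusted p of 0.05. The RNA sensors lie at or right of 0 in both knockouts, while Mx1, Rsad2, Xaf1, Usp18 and Oas3 lie left of it.

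The other members tested did not pass after sgSik3. The remaining RNA-directed effectors, Ifit2, Oas1a, Oas2, Eif2ak2 and Adar, had log2 fold changes from -0.04 for Adar to 0.17 for Oas2. Reads of Oas1a may be shared with near-identical copies in its cluster. Isg15, the ubiquitin-like modifier that names the family, had values of 19.8 and 17.0 in sgRosa26 and 21.4 and 27.3 in sgSik3. Its log2 fold change of 0.38 (SE 0.29) did not pass, so the modifier and its protease Usp18 had estimates of opposite sign. Parp9 and Dtx3l, partners in a complex that modifies ubiquitin and histones, were at -0.11 and -0.01 and did not pass either. Their exons overlap on opposite strands over 9.401% of Parp9 and 8.0% of Dtx3l, and since strand use in counting was not given, a share of their reads cannot be told apart. Ifi35 was at 0.12 and did not pass.

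After loss of Mef2c, Mx1, Xaf1, Usp18, Oas3, Gbp3 and Parp14 fell, and Samd9l, Isg20, Ddx58 and Ifih1 rose. Of 29 members tested, 4 rose, 10 fell and 15 did not pass, where 31.4% of 10956 genes were called, 16.3% higher and 15.1% lower. Groups did not overlap for 10 members on the higher side and 13 on the lower, against 35.5% and 35.0% of all genes (70.5% in either direction). The median log2 fold change was -0.10 over the members and 0.00 over all genes. Type I targets had 4 rises and 9 falls among 26 tested and a median of -0.08, which was 0.01 without sgMef2c library 2. Guanylate-binding proteins had no rise and 1 fall among 3 tested and a median of -0.49. DESeq2 called 2255 of the 10956 genes in either direction, among them 2 members higher and 2 lower. With any 1 library left out fewer members were called too, and the share of all genes in those runs was not taken. This comparison uses the same sgRosa26 libraries as the sgSik3 comparison, so the values of the comparisons are set side by side without a measure of their likeness.

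Among the members tested, Mx1 fell furthest after sgMef2c, from 31.6 and 31.4 to 10.7 and 9.69, a log2 fold change of -1.54 (SE 0.28, limma adjusted p 0.0074). Xaf1 went from 31.6 and 39.7 to 16.1 and 12.9, a log2 fold change of -1.24 (SE 0.28, limma adjusted p 0.016). Usp18 went from 49.4 and 50.2 to 26.0 and 22.6, a log2 fold change of -1.01 (SE 0.22, limma adjusted p 0.013). In all 3 genes both sgMef2c libraries lay well below both controls. Oas3 went from 75.1 and 84.7 to 41.2 and 45.2, a log2 fold change of -0.87 (SE 0.18, limma adjusted p 0.011). Parp14, an ADP-ribosyltransferase that modifies host and viral proteins, went from 562 and 578 to 397 and 370.5, a log2 fold change of -0.57 (SE 0.07, limma adjusted p 0.0021). Both sgMef2c libraries lay below both controls for Parp14. Smaller falls were found for Irf9 (by 0.32), Parp9 (by 0.32), Bst2 (by 0.29) and Trim25 (by 0.14). By DESeq2, Mx1, Xaf1, Usp18 and Oas3 did not pass (adjusted p 0.0605, 0.113, 0.12 and 0.0753), nor did any of these smaller falls. When 1 library was left out, Xaf1, Usp18, Oas3 and each of the smaller falls lost their limma call in at least 1 run. Mx1 and Parp14 kept theirs in each such run.

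Samd9l rose to 251 and 348 from 131 and 190.3 after sgMef2c, a log2 fold change of 0.90 (SE 0.21, limma adjusted p 0.019). Isg20 rose to 142 and 123 from 85.04 and 76.3, a log2 fold change of 0.71 (SE 0.15, limma adjusted p 0.012). Both sgMef2c libraries of each gene were above both controls, although the libraries of Samd9l were spread within each group. Ddx58 rose by 0.55 on the log2 scale and Ifih1 by 0.25. Isg20 and Ifih1 did not pass by DESeq2 (adjusted p 0.0584 and 0.23). Samd9l and Ddx58 were not past the limma threshold without sgRosa26 library 1, nor without sgMef2c library 2. Isg20 and Ifih1 also lost their limma calls in at least 1 run with 1 library left out. Rsad2 was at 27.7 and 14.6 against 13.4 and 6.46, and its log2 fold change of -1.03 (SE 0.47, limma adjusted p 0.14) did not pass. Dhx58, Stat2 and Irf1, which had risen after sgSik3, were at 0.03, 0.09 and 0.06 and did not pass.

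**Figure D2:**
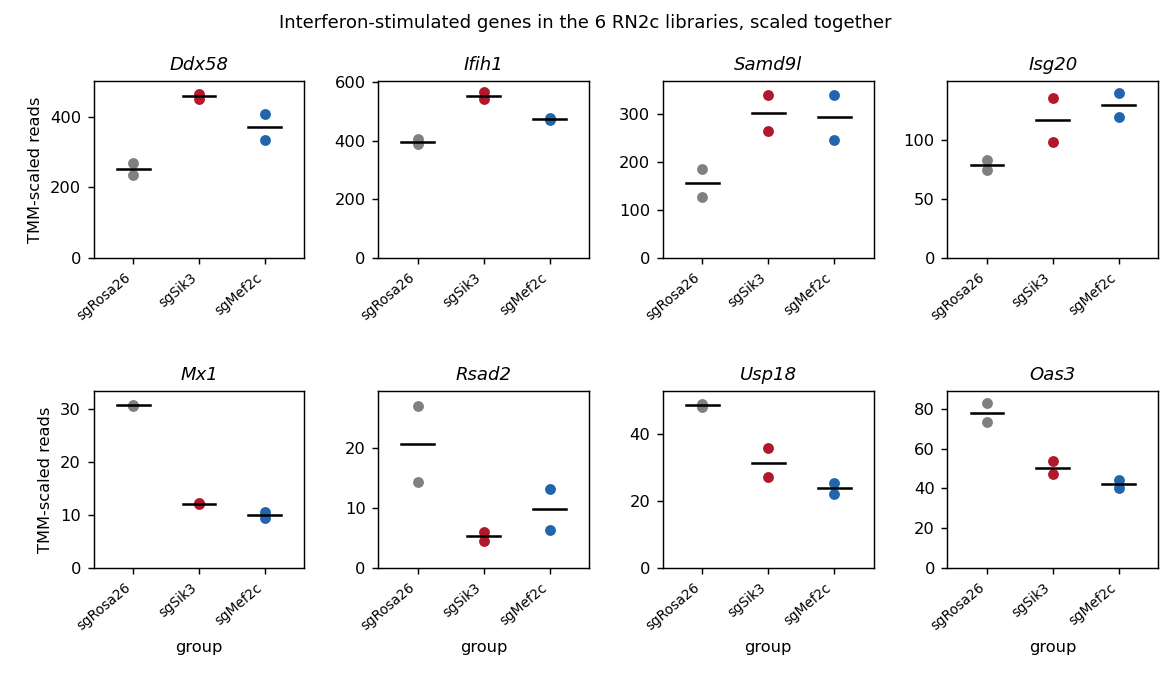
Reads of 8 members in each of the 6 RN2c libraries after scaling them together (vertical axes, TMM-scaled reads, each starting at 0), with sgRosa26 in grey, sgSik3 in red and sgMef2c in blue. Points are libraries and lines are means of 2. Ddx58, Ifih1, Samd9l and Isg20 (upper row) lie above sgRosa26 in the knockout libraries, and Mx1, Rsad2, Usp18 and Oas3 (lower row) lie below it, although Rsad2 did not pass in sgMef2c.

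Guanylate-binding proteins did not move as a block in the knockouts. Gbp3 fell in both, from 739 and 702 to 558 and 548 after sgSik3 (a log2 fold change of -0.38 with SE 0.06 and limma adjusted p 0.0010), and from 777 and 736 to 511 and 407 after sgMef2c (log2 fold change -0.73, SE 0.11, limma adjusted p 0.0035). Both knockout libraries lay below both controls each time. Gbp7, whose gene lies just upstream of Gbp3 on chromosome 3 (GRCm38, Gbp7 at 142530342 to 142550149 and Gbp3 at 142560026 to 142573209, both on the plus strand), rose after sgSik3. Its values were 386 and 336 in sgRosa26 and 449.5 and 467 in sgSik3, with a log2 fold change of 0.35 (SE 0.09, limma adjusted p 0.0099). Leaving out the e3 library gave limma adjusted p 0.082, and DESeq2 gave 0.050, just over the threshold. After sgMef2c Gbp7 was at 405 and 352 against 441 and 387, groups that overlap, with a log2 fold change of 0.13 (SE 0.10, limma adjusted p 0.39). Gbp2, further along the same cluster, was at 26.3 and 24.9 against 23.4 and 36.02 after sgSik3 and at 27.7 and 26.1 against 20.6 and 17.2 after sgMef2c, and passed in neither. Of the exon bases of Gbp7, 11.35% are shared with the gene model Gm43802, so a share of its reads is uncertain.

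**Figure D3:**
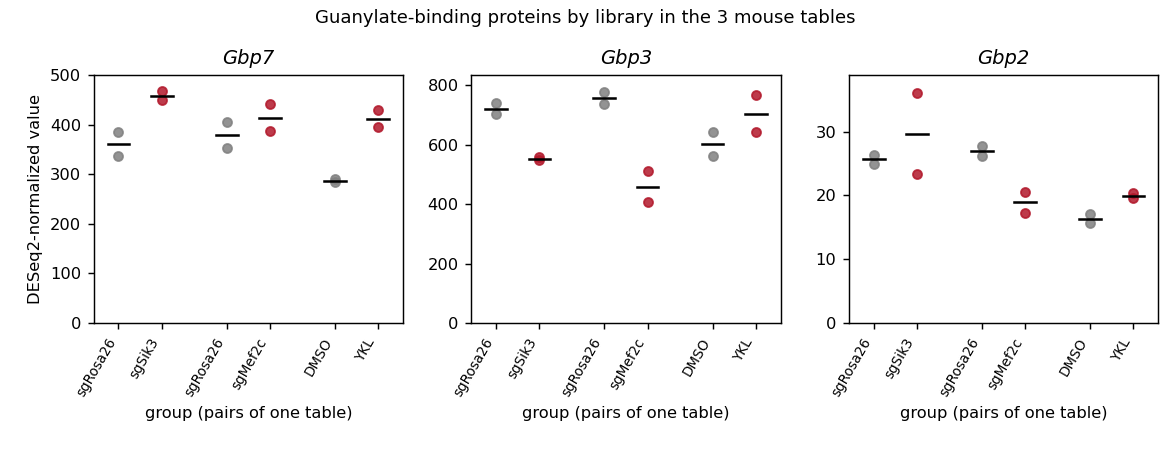
Deposited DESeq2-normalized values (vertical axes, starting at 0) of Gbp7, Gbp3 and Gbp2 in each library of the 3 mouse tables, with control libraries in grey and knockout or inhibitor libraries in red. Points are libraries and lines are means of 2, and the tables were normalized separately, so heights compare within a pair. Gbp7 lies above its controls after sgSik3 and after YKL-05-099, and Gbp3 lies below its controls in both knockouts.

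The knockouts were also tested against each other with edgeR on the reads of the 6 RN2c libraries. Among 29 members 10 had an unadjusted edgeR p under 0.05, where 2837 of all 10952 genes did. None was called higher in sgMef2c by edgeR or DESeq2. By edgeR 1 was called lower, where 9.44% of the 10952 genes were called, 3.70% higher and 5.74% lower. That member was Parp14, with a log2 difference of -0.35 for sgMef2c minus sgSik3 (edgeR adjusted p 0.022). The call was not past the threshold by DESeq2 (adjusted p 0.087), nor without either sgSik3 library (0.16 and 0.16 for edgeR) or without sgMef2c library 2 (0.068). The difference was negative for 25 of 29 members, with a median of -0.22, while 5336 of 10952 genes were negative and the median of all genes was 0.00. All 3 guanylate-binding proteins had negative estimates that did not pass with all 6 libraries and the filter, -0.70 for Gbp2, -0.34 for Gbp3 and -0.22 for Gbp7, with edgeR adjusted p of 0.18, 0.064 and 0.18. Gbp3 passed with no filter (-0.33, edgeR adjusted p 0.0107) and without sgMef2c library 1 (-0.53, edgeR adjusted p 0.00997). The rise of Gbp7 after sgSik3 was therefore not shown to differ from its change after sgMef2c. Ddx58, Ifih1, Dhx58 and Stat2 were at -0.31, -0.23, -0.31 and -0.17 and did not pass.

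After 2 hr of YKL-05-099 in RN2, Gbp7 came closest to the threshold. None of 30 members passed in either direction by limma, edgeR or DESeq2, where limma called 0.317% of 10732 genes (0.0373% higher and 0.280% lower). DESeq2 gave 833 of these genes no adjusted p and so did not judge them. Among them were Ifit1, Isg15, Oas2, Mx1, Irf7, Rsad2, Usp18, Xaf1 and Gbp2. An unadjusted limma p under 0.05 was found for 2 members, Gbp3 and Gbp7, and for 786 of all 10732 genes. Groups did not overlap for 8 members on the higher side (18.1% of all genes) and for none on the lower side (18.7%), where 36.8% of all genes did not overlap in either direction. The median log2 fold change was 0.03 over the members, 0.01 over 27 type I targets, 0.27 over 3 guanylate-binding proteins and 0.00 over all genes. Ifit1, tested in RN2 and not in RN2c, was at 9.44 and 23.0 against 6.80 and 14.7, groups that overlap.

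Gbp7 had the lowest p of the members after the inhibitor. Its values were 283 and 290.0 in DMSO and 395 and 429 with YKL-05-099, so both treated libraries stood well above both controls. The log2 fold change was 0.52 (SE 0.09), a ratio of 1.43, and limma adjusted p was 0.055, edgeR 0.061 and DESeq2 0.12. Without DMSO library 1 limma adjusted p was 0.013 and without DMSO library 2 it was 0.0019, while without YKL-05-099 library 2 it was 0.46. Gbp3 was at 562 and 644 against 641 and 767, a log2 fold change of 0.22 (SE 0.10, limma adjusted p 0.68), with groups that just overlap. Gbp2 was at 15.7 and 17.0 against 20.4 and 19.5, a log2 fold change of 0.27 (SE 0.30, limma adjusted p 0.91), and its groups did not overlap. Gbp4 and Gbp9 had too few reads to be tested. Among type I targets the groups of Dhx58, Dtx3l, Irf1, Stat2, Usp18 and Eif2ak2 did not overlap, with log2 fold changes from 0.08 for Stat2 to 0.31 for Usp18. Ddx58 was at 89.2 and 138 against 118 and 116, and Mx1 at 10.5 and 16.0 against 14.6 and 29.3. The groups of both genes overlap.

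In MOLM-13 none of 26 members tested passed by limma, edgeR or DESeq2, and limma called 0 of 11361 genes (0%), with 144 at an unadjusted p under 0.05, while edgeR called 0 genes and DESeq2 called 7. The groups of 7 members did not overlap on the higher side (10.7% of all genes) and of none on the lower side (10.5%, and 21.2% in either direction), and 2 members, GBP3 and XAF1, had an unadjusted limma p under 0.05. The median log2 fold change was 0.10 over the members, 0.10 over 24 type I targets, 0.13 over 2 guanylate-binding proteins and 0.00 over all genes. GBP3 was at 71.3 and 76.1 in DMSO and 102 and 98.4 with YKL-05-099, so both treated libraries were above both controls, with a log2 fold change of 0.44 (SE 0.18, limma adjusted p 1.00). GBP2 was at 80.7 and 89.8 against 68.4 and 82.2, a log2 fold change of -0.18 (SE 0.20). GBP7 could not be compared, since it had values of 0, 0, 0 and 0.96. XAF1 was at 841 and 1045 against 1176 and 1319, a log2 fold change of 0.41 (SE 0.14, limma adjusted p 1.00). RSAD2 was at 5.24 and 2.57 against 18.5 and 13.4. Its mean of 9.93 was just under the filter, and without the filter its log2 fold change of 1.83 had a limma adjusted p of 1.00. The other members whose groups did not overlap were IRF1, DDX58, IFIH1, PARP9 and SAMD9L, at 0.17, 0.29, 0.16, 0.31 and 0.17.

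**Figure D4:**
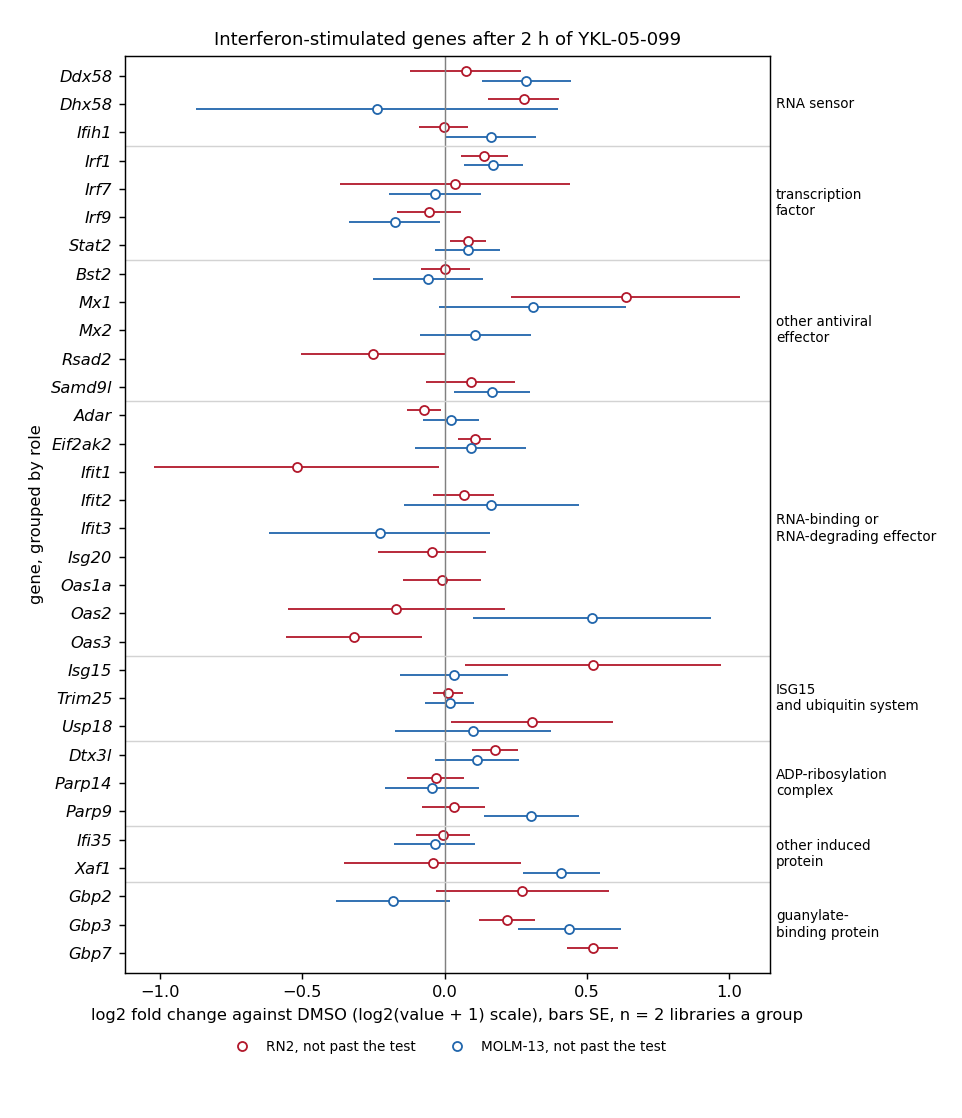
Log2 fold change of tested members after 2 hr of YKL-05-099 against DMSO (horizontal axis, log2(value + 1) scale) in RN2 in red and MOLM-13 in blue, with genes in rows grouped by role. Points are estimates from 2 libraries a group and bars are SE; a gene tested in 1 line has 1 point. All points are open because none passed the limma test, and Gbp7 in RN2 lies at 0.52.

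Doses differed between the lines, so their values are only set side by side. Of 24 members tested in both lines, 13 had a positive estimate in both and 3 a negative one in both. Over all genes, 5326 of 10732 estimates were positive in RN2 and 5643 of 11361 in MOLM-13. IRF1 was the 1 member whose groups were apart in both lines, at 0.14 in RN2 and 0.17 in MOLM-13. On the higher side 18.1% of all genes did not overlap in RN2 and 10.7% in MOLM-13. Shares of all genes in both lines together were not counted, so these counts are not set apart from other genes. After sgSik3 and after the inhibitor in RN2, Gbp7 was at 0.35 and 0.52, Ddx58 at 0.85 and 0.07, Ifih1 at 0.47 and 0.00, Samd9l at 0.95 and 0.09, Mx1 at -1.27 and 0.64, Rsad2 at -1.74 and -0.25, and Gbp3 at -0.38 and 0.22. These comparisons share no library, and the difference between them was not tested.

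The genes that carry the interferon signal were counted in the same way. Of 23 tested pathway genes (receptors, kinases, transcription factors and nucleic acid sensors), 10 rose and 6 fell after sgSik3, where 23.9% of all genes rose and 23.9% fell. The lead changes were Tlr9, an endosomal DNA sensor, at -1.01, Irf8, a transcription factor of monocytes and dendritic cells, at -0.95, Irf5 at -0.60, Stat3 at 0.58, Mavs, the adaptor of the RNA sensors, at -0.46 and the interferon gamma receptor subunit Ifngr1 at 0.45. So the sensors Ddx58 and Ifih1 rose while their adaptor fell. After sgMef2c, 5 rose and 7 fell, where 16.3% of all genes rose and 15.1% fell. The changes were led by Irf8 at -0.97, Irf5 at -0.84, Tlr9 at -0.76, Stat3 at 0.43, Ifngr1 at 0.39 and Tmem173, which encodes STING, at 0.34. In RN2 the inhibitor gave 1 call among 23 pathway genes, Irf8, which went from 2443 and 2252 to 1837 and 1828 (log2 fold change -0.36, SE 0.05, limma adjusted p 0.024). In MOLM-13 none of 23 passed by limma, and 2 had an unadjusted p under 0.05, as did 144 of all 11361 genes.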

How the data were processed

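Per the labels' protocols, polyadenylated RNA was sequenced. The submitters' processing notes name HISAT2 and featureCounts, then DESeq2, and the builds hg19 and mm10, with tool versions not given in the sources used here. Values deposited by the authors are DESeq2-normalized, a linear signal in which each read count was divided by a size factor of its library, in 4 tables normalized separately. In every library 100% of values were whole multiples of the smallest nonzero value, within 6.1e-10 reads, so reads could be recovered. Both RN2c tables hold the same sgRosa26 reads (0 genes differ).

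Tests within a table used limma 3.58.1 (R 4.3.3; two-sided, mean-variance trend) on log2(value + 1) for genes whose mean was 10 or more, with Benjamini-Hochberg adjustment over all genes and a threshold of 0.05. Fold changes on this scale understate those of low genes. The knockouts were compared with edgeR 4.0.16 (quasi-likelihood, TMM) on recovered reads, and edgeR and DESeq2 1.42.0 were alternatives. The scripts were tested on simulated data. With 2 libraries a group, p-values reflect the spread of these libraries alone, which may be technical. Lengths and positions are from GENCODE (GRCm38). The members and lists were chosen with earlier results of these data known. Members past the test were named, with library values for the 8 largest changes in each comparison and for guanylate-binding proteins, and up to 6 of each further list.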

Additional observations from a re-analysis of the deposited data

Results flagged for a closer look

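With edgeR on all 6 RN2c libraries and the filter of a mean of 10, Parp14 was the 1 member of 29 tested whose response differed between the knockouts when the difference itself was tested. The same test called 9.44% of all 10952 genes, 5.74% of them lower, so such a call is not particular to the members. With no filter 3 members passed, leaving out 1 library gave 0 to 2, and DESeq2 called 0. The log2 difference of sgMef2c minus sgSik3 was -0.35 (edgeR adjusted p 0.022). Against the sgRosa26 libraries they share, its log2 fold change was -0.57 in sgMef2c and -0.23 in sgSik3. The difference was past the threshold neither by DESeq2 nor without either sgSik3 library or sgMef2c library 2.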

How the results depend on the processing

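No member called in the main analysis reversed its direction in any alternative run. Of 18 calls in sgSik3, 4 (Bst2, Ddx58, Gbp3 and Ifih1) held in all 13 alternatives, and of 14 in sgMef2c, 2 (Gbp3 and Parp14) held in all 14. For sgSik3, 8 members rose, 5 without the mean-variance trend and 4 by DESeq2, and 10 fell, 6 under the stricter filter (mean of 50 or more) and 2 by DESeq2. For sgMef2c, 4 rose, 2 without the trend and 2 by DESeq2, and 10 fell, 2 by DESeq2. Calls over all genes fell as well. In sgSik3 they went from 5226 of 10934 to 4007 without the trend and 3532 by DESeq2. In sgMef2c they went from 3442 of 10956 to 1628 and 2255. Shares of all genes were not taken for the stricter filter, no filter or runs with 1 library left out. The direct test gave 1 lower member, 0 by DESeq2 and 3 with no filter. Leaving out 1 library, with a lone library assumed to vary like the other group, gave 3 to 7 higher and 4 to 7 lower for sgSik3, 1 to 3 and 3 to 8 for sgMef2c, 0 to 2 higher for the inhibitor in RN2 and 0 to 2 lower for the direct test.

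Medians of small subgroups followed the filter and single libraries. Under that stricter filter, the median of guanylate-binding proteins moved from -0.49 to -0.30 in sgMef2c and from 0.27 to 0.37 in RN2, and that of type I targets from -0.08 to 0.05 in sgMef2c, where fewer genes are tested. With no filter the median of guanylate-binding proteins was 0.42 in MOLM-13, where GBP4 and GBP7 enter with mean values of only 4.21 and 0.24. Leaving out 1 library gave medians of type I targets from -0.06 to 0.06 in sgSik3, -0.12 to 0.01 in sgMef2c, -0.03 to 0.07 in RN2 and 0.07 to 0.20 in MOLM-13, and of guanylate-binding proteins from -0.13 to 0.38 in sgSik3 and 0.22 to 0.35 in RN2. A stricter response element, the core followed by CT, was in 8 members in place of 14.

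With the replicate number as a block, 5 members rose and 10 fell in sgMef2c, 2 rose in RN2 (Gbp7, adjusted p 2.75e-07, and Gbp3, 0.0201) and 1 rose in MOLM-13 (XAF1, 7.29e-10), all by limma. Calls over all genes also grew with the block, from 3442 to 3905 of 10956 in sgMef2c. They grew from 34 to 499 of 10732 in RN2 and from 0 to 290 of 11361 in MOLM-13. Differences between libraries of the same number correlated at 0.05, 0.22 and 0.53 across all genes tested, in that order. Across the members tested they correlated at 0.73, 0.57 and 0.34. With 2 numbers and no label tying them, however, the libraries share only a number, which for sgMef2c names the guide. The sgSik3 libraries, e1 and e3, share no number with their controls. Apart from these results, the cause of each change was not tested. With 2 libraries a group, members of low values such as Rsad2 and Gbp2 have wide errors, and changes of their size may go undetected.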

Other observations

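Interferon-inducible genes outside the 37 members, from lists also named with earlier results known, were also counted in the knockouts. Of 25 tested after sgSik3, 5 rose and 6 fell, where 23.9% of all genes rose and 23.9% fell. Of 25 after sgMef2c, 4 rose and 10 fell, where 16.3% and 15.1% of all genes did. The largest changes were in Ifi203, a member of the interferon-inducible cluster of nucleic acid sensors, at -1.81 and -2.73, Slfn5 at -1.72 and -2.40, Ifitm6 at 1.14 and 1.13, Lgals3bp at -1.11 and -0.77, Sp100, a nuclear body protein, at 0.93 and 0.64, and Nlrc5, the transactivator of class I antigen presentation, at -0.80 and -1.51, in sgSik3 and sgMef2c. Among 4 tested GTPases outside the members, Igtp and Irgm2 rose after sgSik3 by 0.47 and 0.46, and Ifi47 fell by 0.21 after sgSik3 and by 0.67 after sgMef2c. After the inhibitor none of the genes outside the members passed by limma, among 27 tested with 4 GTPases in RN2 and 19 with 1 GTPase in MOLM-13. Of these, 4 in RN2 and 0 in MOLM-13 had an unadjusted p under 0.05, against 786 of 10732 and 144 of 11361 genes.

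Cmpk2, a mitochondrial nucleotide kinase gene that lies beside Rsad2, was chosen after its values were seen. In RN2 it was at 153 and 154 in DMSO and 243 and 225 with YKL-05-099, a log2 fold change of 0.60 (SE 0.11, limma adjusted p 0.068). It did not pass by edgeR (adjusted p 0.078) or DESeq2 (adjusted p 0.313) either. Rsad2 was at 31.5 and 41 against 27.2 and 33.2 in the same libraries, groups that overlap.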
